A study of Mus musculus with 6 samples.

Results

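The genes described here are 8 matrix metalloproteinases, Mmp2, Mmp3, Mmp8, Mmp9, Mmp10, Mmp12, Mmp13 and Mmp14, and the inhibitors Timp1 and Timp3. They were taken by symbol from the gene table of a single-cell RNA sequencing study of mouse skin, and all 10 were found among its 31053 genes. The study asked how the dorsal skin of female C57BL/6 mice, aged 8 to 10 weeks, changed under imiquimod, a TLR7 agonist that gives a psoriasis-like inflammation, and under SHP099, which inhibits the phosphatase SHP2 allosterically. Sham mice had no imiquimod and no SHP099. IMQ mice had 62.5 mg of a 5% imiquimod cream a day for 4 days. IMQ+SHP099 mice had the same cream and SHP099 by gavage at 10 mg/kg a day for 4 days. Each group had 2 libraries, each pooling skin from several animals, so the spread between the 2 libraries of a group is the only replicate error. It was estimated over all groups in a fit, and a p-value measures that spread alone.

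Matrix metalloproteinases are secreted or membrane-bound zinc proteases that cut collagens, other matrix proteins and signalling molecules. They are made as inactive proenzymes, so RNA shows supply and not activity. Tissue inhibitors of metalloproteinases (TIMPs) bind the active site, with TIMP1 a soluble protein and TIMP3 held in the matrix. In skin, MMP2 (gelatinase A) and its membrane-bound activator MMP14 are mainly stromal, MMP3 and MMP10 are stromelysins, MMP8 and MMP13 are collagenases, MMP9 (gelatinase B) is stored in neutrophil granules, and MMP12 is the macrophage elastase.

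Of the 10 genes, 5 lie in the same region of the plus strand of mouse chromosome 9 (GRCm38), though not all as direct neighbours. They are Mmp13 at chr9:7272514-7283331, Mmp12 at chr9:7344381-7369499, Mmp3 at chr9:7445822-7455975, Mmp10 at chr9:7502352-7510240 and Mmp8 at chr9:7558456-7568485. The others were on chromosomes 8 (Mmp2, chr8:92827291-92853420), 2 (Mmp9, chr2:164940780-164955850), 14 (Mmp14, chr14:54431612-54445364), X (Timp1, chrX:20870166-20874735) and 10 (Timp3, chr10:86300372-86349506). The 5 clustered genes did not share a single main cell class. The 120 bases before the RefSeq start (GRCm38.p6, plus strand) are shown for 4 of them, a keratinocyte gene, a fibroblast gene, a keratinocyte gene of low level and a neutrophil gene. Capitals mark TGANTCA, the letters of an AP-1 site, and TATAAA, the letters of a TATA box.
Mmp13, chr9:7272394-7272513: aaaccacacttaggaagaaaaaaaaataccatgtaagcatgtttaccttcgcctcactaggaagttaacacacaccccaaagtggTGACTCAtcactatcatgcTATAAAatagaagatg
Mmp3, chr9:7445702-7445821: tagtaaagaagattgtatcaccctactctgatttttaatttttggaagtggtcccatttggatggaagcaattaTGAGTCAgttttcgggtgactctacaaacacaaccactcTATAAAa
Mmp10, chr9:7502222-7502341: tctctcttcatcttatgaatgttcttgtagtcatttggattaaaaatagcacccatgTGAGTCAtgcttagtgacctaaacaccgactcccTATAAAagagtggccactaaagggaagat
Mmp8, chr9:7558309-7558428: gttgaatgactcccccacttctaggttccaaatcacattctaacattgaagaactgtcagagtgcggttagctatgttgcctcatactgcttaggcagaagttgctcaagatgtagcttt

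Mmp13, Mmp3 and Mmp10 held both sets of letters, with TGANTCA 35, 46 and 63 bases and TATAAA 16, 7 and 29 bases before the start. Windows of the 250 bases before the start were searched on the given strand only. TGANTCA was in 6.75% of 32851 such windows of mouse promoters, TATAAA in 7.59% and both in 0.791%. RefSeq promoters were at hand for 8 of the 10 genes. No match was in the windows of Mmp8, Mmp14, Timp1 and Timp3, and 1 of the 2 Mmp12 starts held TGANTCA. A match is a description of letters, not of a bound site.

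The files held 55201 barcodes, of which 50850 passed the study's limits on unique molecular identifiers (UMIs, each counting 1 captured transcript), genes and mitochondrial share. Libraries held 7382 to 10293 kept cells with 51968673 to 170319612 UMIs in all. Library IMQ+SHP099 1 was the deepest at a median of 18264 UMIs per cell and IMQ+SHP099 2 the shallowest at 5645, so shares of cells with a UMI are given as counted and again after each cell was thinned to 2000 UMIs. Any 2 libraries shared 12 to 30 barcodes. Cell classes were set by marker genes, with no doublet caller but with limits on the markers of other classes, and 13.3% to 28.0% of the cells of a library fell in no class. The gates gave 981 to 5719 fibroblasts and 405 to 5850 keratinocytes per library. Macrophages numbered 45, 439, 416, 392, 45 and 268 and neutrophils 4, 7, 147, 311, 9 and 87 (in the order Sham 1, Sham 2, IMQ 1, IMQ 2, IMQ+SHP099 1 and IMQ+SHP099 2, kept for all values below). Neutrophil levels are therefore given for both IMQ libraries and for IMQ+SHP099 2 only. Levels are given in CPM, the UMIs of a gene per 1000000 UMIs of the same class and library. All 7 fibroblast markers were detected in the fibroblasts of every library, and all 10 macrophage markers in the macrophages of every library. The gates were set with these same markers, so their detection is no check of the gates.

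**Figure D1:**
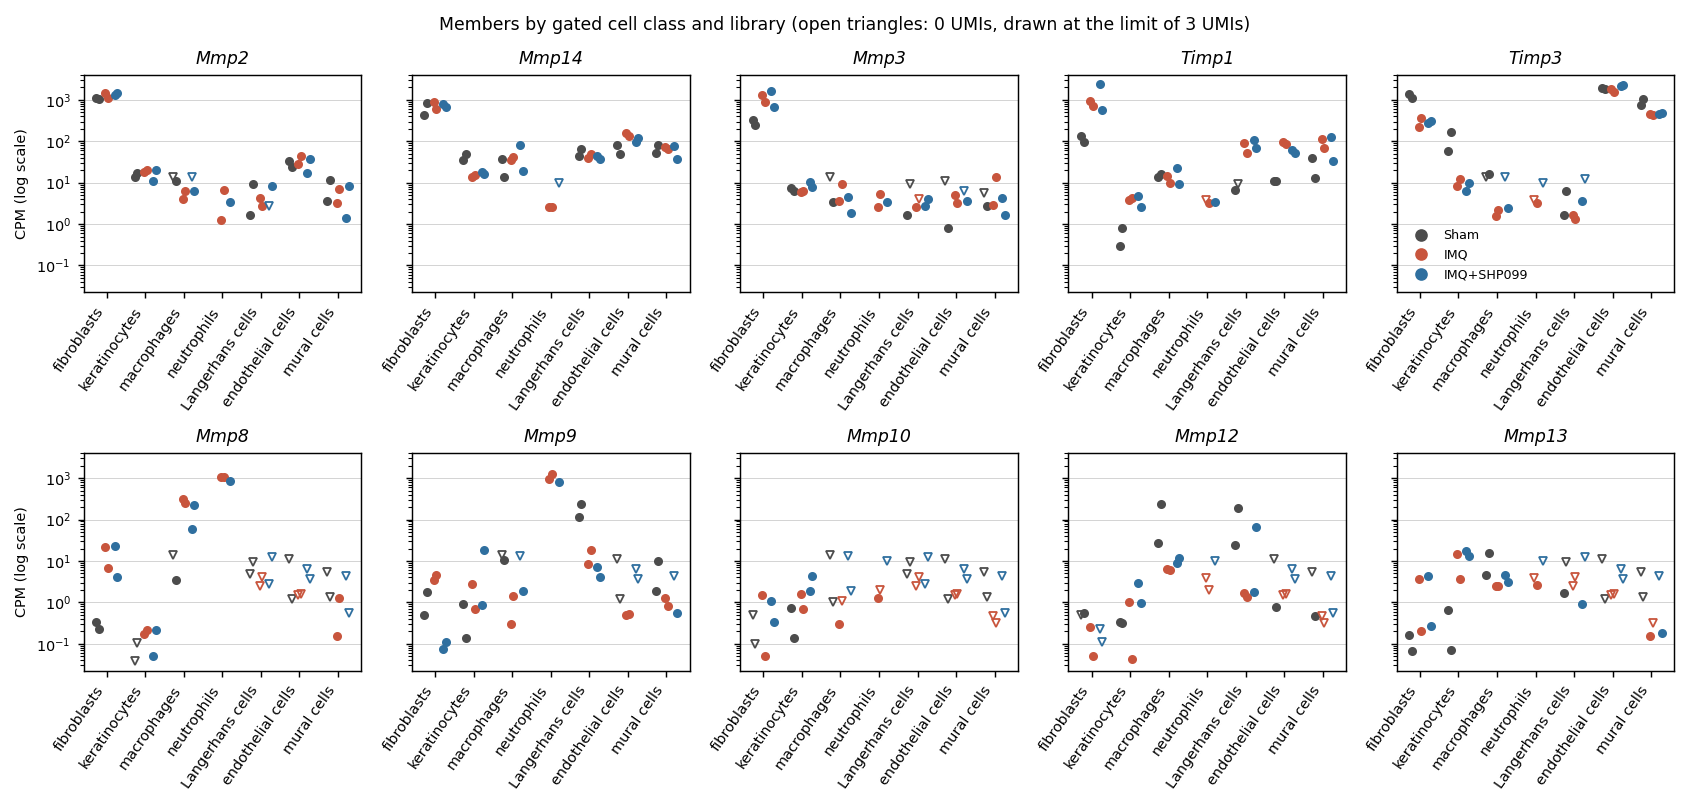
Levels of the 10 genes in 7 gated cell classes, in CPM on a log axis, with 1 point per library coloured by group. Open triangles mark libraries with 0 UMIs, drawn at the level that 3 UMIs would have, and classes with fewer than 10 cells in a library are not drawn. Mmp2, Mmp14, Mmp3 and Timp1 were highest in fibroblasts, Mmp8 and Mmp9 in neutrophils, and Mmp12 in Sham macrophages and Langerhans cells.

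Fibroblasts held most UMIs of 5 of the genes. Of all Mmp2 UMIs, 88.6% to 91.6% lay in gated fibroblasts, depending on the group. The fibroblast share was 82.1% to 91.8% for Mmp3, 83.8% to 89.8% for Timp1 and 75.7% to 86.7% for Mmp14. Timp3 was divided, with 54.4% to 58.6% in fibroblasts and, under IMQ, 13.4% in endothelial and 14.4% in mural cells. Mmp8 and Mmp9 were led by neutrophils under IMQ, at 40.3% and 66.1% of their UMIs. Of the gated classes, keratinocytes held most Mmp10 and Mmp13 in each group, at 93.8%, 48.8% and 79.3% of the Mmp10 UMIs and 41.1%, 71.1% and 91.4% of the Mmp13 UMIs in Sham, IMQ and IMQ+SHP099. In Sham, 36.4% of the 129 Mmp13 UMIs lay in macrophages. These shares follow the number of cells in each class as well as their levels, and over a whole library fewer cells of a type and less RNA per cell cannot be told apart.

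**Figure D2:**
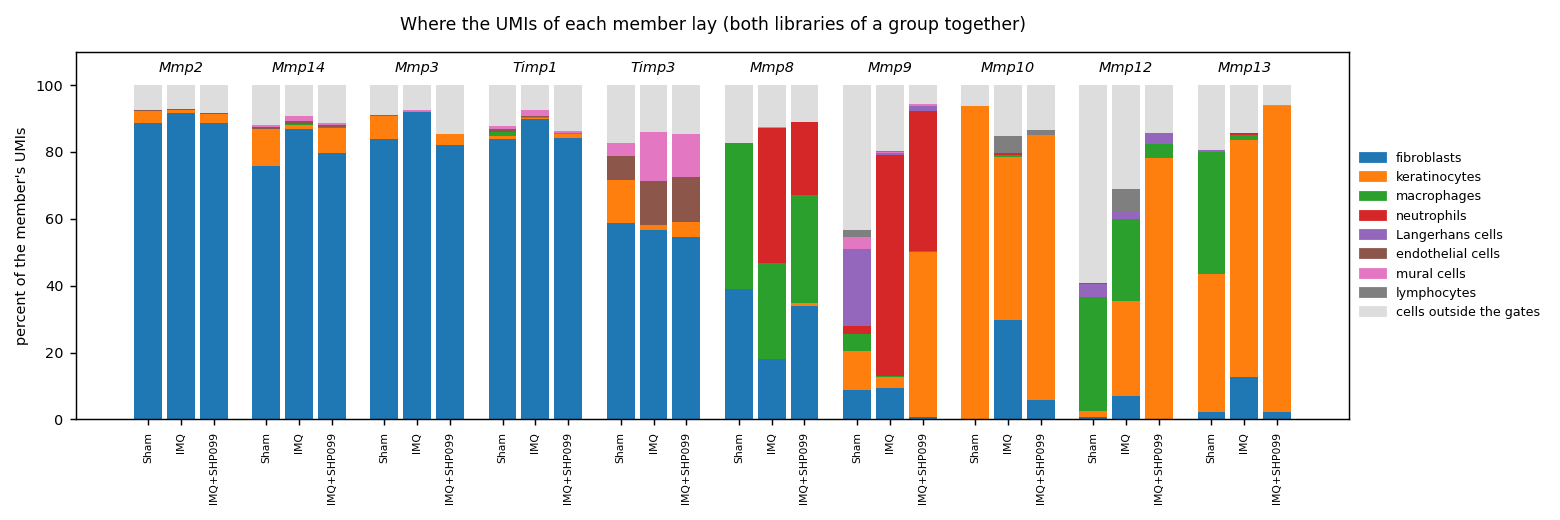
Percent of the UMIs of each gene that lay in each gated class, with both libraries of a group added together and 1 bar per group. Fibroblasts fill most of the bars of Mmp2, Mmp14, Mmp3 and Timp1, neutrophils and macrophages share Mmp8 under IMQ, and 59.3% of the 2026 Mmp12 UMIs of Sham skin lay in cells outside the gates.

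Classes were compared with the library as a block, over all libraries, save that neutrophils came from IMQ 1, IMQ 2 and IMQ+SHP099 2 only. Between fibroblasts and keratinocytes 9 of the 10 genes differed, where 70% of all genes tested did. The same test called 8 of 10 between fibroblasts and macrophages (59.3% of all genes), 7 between fibroblasts and neutrophils (56.7%), 6 between keratinocytes and macrophages (61.5%), 5 between keratinocytes and neutrophils (55.4%) and 3 between macrophages and neutrophils (32.1%). These shares are so high that the counts say little of the family. The sizes were large: on the log2 scale fibroblasts exceeded keratinocytes by 7.64 in Timp1, 6.30 in Mmp8, 6.21 in Mmp3, 5.89 in Mmp2, 4.55 in Mmp14 and 4.20 in Timp3. Mmp13, Mmp12 and Mmp10 lay the other way, at -3.39, -3.22 and -2.61. Macrophages were 3.02 above neutrophils in Mmp14, and Mmp8 and Mmp9 lay the other way at -2.85 and -8.64, where the median of all genes was 0.62. Of these, the Mmp12 call was lost without IMQ+SHP099 1 (adjusted p = 0.0908) or IMQ+SHP099 2 (0.0532), and the Mmp14 call between macrophages and neutrophils without IMQ 1 (0.0666) or IMQ 2 (0.0807).

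Mmp2 was the steadiest of the genes. Fibroblasts held 1108 and 1025 CPM in Sham, 1488 and 1111 under IMQ, and 1309.5 and 1440.3 under IMQ+SHP099, and 88.6% to 95.3% of them had a UMI (74.5% to 84.1% after thinning). The IMQ libraries lay just above the Sham libraries, and the difference of 0.32 ± 0.36 (log2 fold change ± SE) did not pass the test (edgeR quasi-likelihood, adjusted p = 0.907). Keratinocytes held 10.7 to 20.7 CPM, and endothelial cells 16.8 to 44.8.

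Mmp14, which activates MMP2 at the cell surface, had a broader range of sources. Fibroblasts held 422, 842, 915, 591, 793 and 675 CPM, and the Sham and IMQ values overlapped (0.36 ± 0.38, adjusted p = 0.891). Keratinocytes held 35.4 and 48.4 in Sham against 13.9 and 15.6 under IMQ, and 18.1 and 16.5 under IMQ+SHP099. In keratinocytes both treated groups lay below both Sham libraries, and Mmp14 fell by 1.19 ± 0.25 on the log2 scale with IMQ (adjusted p = 0.0185). That call was lost without IMQ 1 (adjusted p = 0.228) or without IMQ 2 (0.173). Endothelial cells held 80.2, 50.7, 161, 136, 94.6 and 118 CPM, with no overlap between Sham and IMQ, but the difference of 1.37 ± 0.33 did not pass (adjusted p = 0.122).

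Mmp3, a stromelysin that can activate other proenzymes, was found in more fibroblasts under IMQ. Its fibroblast level was 330 and 247 CPM in Sham, 1316 and 889 under IMQ, and 1677 and 683 under IMQ+SHP099. Every treated library lay above both Sham libraries. The share of fibroblasts with a UMI was 39.3% and 38.1% in Sham and 55.4% and 54.4% in IMQ, or 27.7% and 23.2% against 38.9% and 36.1% after thinning. The fold change of 1.95 ± 0.56 did not pass in the sum of all fibroblasts (adjusted p = 0.221), but DESeq2 called it (adjusted p = 0.0075). Keratinocyte Mmp3 stayed between 5.85 and 10.7 CPM in all libraries.

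Timp1 had the widest span of the fibroblast genes. Fibroblasts held 132 and 97.8 CPM in Sham, 956 and 704 under IMQ, and 2366 and 580 under IMQ+SHP099. No treated library overlapped with Sham, and the IMQ+SHP099 libraries lay on either side of both IMQ libraries. Cells with a UMI were 31.9% and 38.8% of Sham and 76.7% and 75.1% of IMQ fibroblasts, or 14.7% and 13.6% against 49.6% and 43.8% after thinning. The fold change of 2.86 ± 0.71 did not pass (adjusted p = 0.16), and DESeq2 called it (adjusted p = 0.000256).

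Timp3 moved the other way. Fibroblasts held 1369 and 1085 CPM in Sham, 221 and 358 under IMQ, and 281 and 309 under IMQ+SHP099. All 4 treated libraries lay below both Sham libraries. The share of fibroblasts with a UMI was 73.6% and 81.0% in Sham and 46.2% and 57.6% in IMQ, or 59.7% and 57.9% against 22.4% and 30.6% after thinning. The fold change was -2.08 ± 0.39 (adjusted p = 0.0849), and DESeq2 called it (adjusted p = 4.26e-06).

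In the sum of all fibroblasts, then, 0 of 9 genes tested were called by edgeR between IMQ and Sham, where 0.354% of all genes were. At an unadjusted p under 0.05, 6 of the 9 passed, and DESeq2 called 4 (Mmp3, Mmp8, Timp1 and Timp3). The median log2 fold change of the 9 was 1.95, against -0.01 for all genes tested. Genes near 0 in Sham, among them Mmp10 (0 UMIs in both libraries) and Mmp8 (2 and 7), passed the filter only through the treated libraries, so this median is a description.

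The fibroblasts were then taken apart into 3 marker gates, named by their genes, in a comparison chosen after the data were seen. The Coch/Dkk2/Crabp1 gate held 93, 694, 1122, 1400, 612 and 884 cells and the Plac8/Cxcl13 gate 345, 306, 976, 2231, 439 and 1747. The Cyp2f2/Lum gate held 222, 1260, 178, 221, 238 and 216, of 981, 3078, 3158, 5719, 1814 and 4092 fibroblasts, its largest shares being those of Sham. How much of the changes in the sum of all fibroblasts came with this makeup was not tested. Over all groups, Coch/Dkk2/Crabp1 and Plac8/Cxcl13 fibroblasts differed in 6 of 7 genes tested (46.6% of all genes). Mmp8, Mmp9, Timp1, Mmp14 and Mmp2 were higher in the Coch/Dkk2/Crabp1 gate by 4.05, 3.87, 1.45, 1.34 and 0.63 on the log2 scale, and Timp3 was lower, at -1.82. Plac8/Cxcl13 and Cyp2f2/Lum fibroblasts differed in 4 of 7 (33.4% of all genes), with Mmp8, Timp1, Mmp14 and Mmp2 at -4.33, -1.74, -1.17 and -0.66 in the Plac8/Cxcl13 gate. Coch/Dkk2/Crabp1 and Cyp2f2/Lum fibroblasts differed in 2 of 7 (13.5% of all genes), in Mmp9 (5.42) and Timp3 (-1.45). The Mmp9 UMIs of the Coch/Dkk2/Crabp1 gate numbered 3, 11, 110, 93, 1 and 1, and those of IMQ lay in few cells, as given below. The Mmp9 calls of this gate therefore rest mainly on the IMQ libraries.

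The IMQ change of Mmp3 differed between the gates. In Cyp2f2/Lum fibroblasts it was at 158 and 277 CPM in Sham, 2618 and 1517 under IMQ, and 1771 and 1198 under IMQ+SHP099. In Coch/Dkk2/Crabp1 fibroblasts it was at 184 and 234 in Sham, 1912 and 1283 under IMQ, and 3235 and 861 under IMQ+SHP099. In Plac8/Cxcl13 fibroblasts it was at 524 and 481 in Sham, 709 and 689 under IMQ, and 343 and 518 under IMQ+SHP099. Thus the Plac8/Cxcl13 gate had the highest Mmp3 level of the 3 in Sham and the lowest under IMQ. With IMQ Mmp3 rose by 3.28 ± 0.45 in Cyp2f2/Lum fibroblasts (adjusted p = 0.000893) and by 3.01 ± 0.62 in Coch/Dkk2/Crabp1 fibroblasts (adjusted p = 0.0274). The difference of 0.50 ± 0.36 in Plac8/Cxcl13 fibroblasts did not pass (adjusted p = 0.74). The IMQ change itself was 2.44 ± 0.57 (log2) smaller in the Plac8/Cxcl13 than in the Coch/Dkk2/Crabp1 gate (interaction test, adjusted p = 0.0432, 2.33% of all genes called) and 2.68 ± 0.57 smaller than in the Cyp2f2/Lum gate (adjusted p = 0.0303, 1.99% of all genes called).

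The IMQ change of Mmp14 also differed between the Plac8/Cxcl13 gate and both others. Coch/Dkk2/Crabp1 fibroblasts held 456 and 911 CPM in Sham and 1679 and 1268 in IMQ, and Plac8/Cxcl13 fibroblasts 375 and 628 in Sham and 364 and 327 in IMQ. The groups did not overlap in either gate, upward in the first and downward in the second, and neither change passed alone (1.22 ± 0.37, adjusted p = 0.126, and -0.45 ± 0.33, adjusted p = 0.745). The 2 changes differed from each other by 1.67 ± 0.21 (adjusted p = 0.00149), and those of the Plac8/Cxcl13 and Cyp2f2/Lum gates by 0.95 ± 0.21 (adjusted p = 0.0338). Between the Cyp2f2/Lum and Coch/Dkk2/Crabp1 gates 0 of 9 differences were called by edgeR (0.218% of all genes), with 1 at an unadjusted p under 0.05, that of Mmp14.

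The 2 inhibitors lay apart from Sham in opposite directions, and 3 of the 6 changes over the 3 gates passed the test. Timp1 in Cyp2f2/Lum fibroblasts was at 224 and 122 CPM in Sham, 1709 and 1138 under IMQ, and 3271 and 1192 under IMQ+SHP099, and it rose by 2.98 ± 0.58 with IMQ (adjusted p = 0.00934). Timp3 in the same gate was at 2049 and 1668 in Sham, 205 and 282 under IMQ, and 262 and 211 under IMQ+SHP099, and it fell by 2.98 ± 0.40 (adjusted p = 0.000828). In Coch/Dkk2/Crabp1 fibroblasts Timp3 was at 637 and 503 in Sham and 103 and 149 in IMQ and fell by 2.16 ± 0.35 (adjusted p = 0.0119). Sham and IMQ did not overlap for either inhibitor in any of the 3 gates. Timp1 in the Coch/Dkk2/Crabp1 gate (3.03 ± 0.80, adjusted p = 0.0759) and both inhibitors in the Plac8/Cxcl13 gate (Timp1 2.52 ± 0.59, adjusted p = 0.107; Timp3 -1.90 ± 0.43, adjusted p = 0.0953) did not pass.

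**Figure D3:**
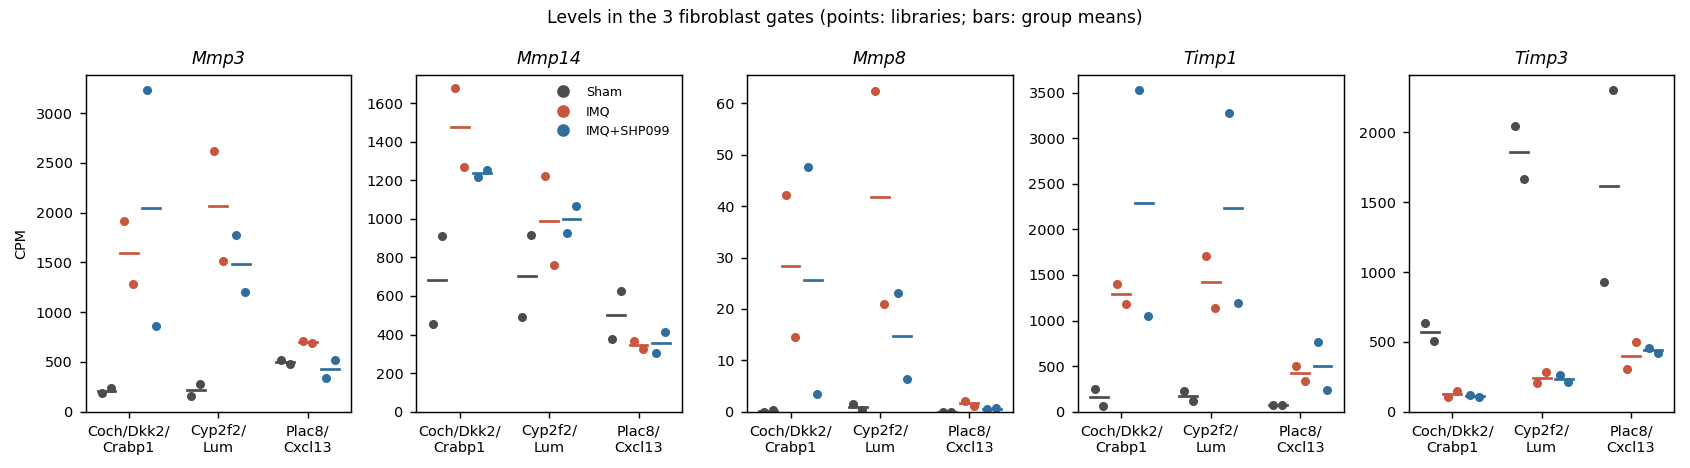
Levels of 5 of the genes in the 3 fibroblast gates, in CPM on linear axes that differ between panels, with 1 point per library and a bar at the mean of the 2 libraries of a group. In the Plac8/Cxcl13 gate no library passes 709 for Mmp3 or 628 for Mmp14, while Timp3 lies below Sham in all treated libraries of each gate.

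In counts, the test called 4 of 6 genes in Cyp2f2/Lum fibroblasts (4.88% of all genes), 2 of 9 in Coch/Dkk2/Crabp1 fibroblasts (3.82%) and 0 of 5 in Plac8/Cxcl13 fibroblasts (0.533%), where 2 passed at an unadjusted p under 0.05 and DESeq2 called 2. The calls of the Coch/Dkk2/Crabp1 gate were the less stable. Mmp3 lost its call there without Sham 1 (adjusted p = 0.121) or Sham 2 (0.23), and Timp3 without IMQ 1 (0.11). A stricter marker gate ended both calls, with Mmp3 at 1.37 (adjusted p = 0.69) and Timp3 at -1.29 (adjusted p = 0.264).

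Mmp8, the neutrophil collagenase, appeared under IMQ in cells other than neutrophils. Neutrophils held 1079.8 and 1077 CPM in IMQ and 863 in IMQ+SHP099 2. Macrophages held 0 and 3.39 in Sham, 323 and 250 under IMQ, and 58.4 and 227 under IMQ+SHP099. In Sham that was 0 and 10 UMIs, against 1059 and 697 in IMQ. The share of macrophages with an Mmp8 UMI was 0% of 45 cells (which allows a share of up to 6.67%) and 1.37% in Sham, 60.8% and 54.8% under IMQ, and 13.3% and 51.5% under IMQ+SHP099, and after thinning 0% and 0.726%, 37.8% and 32.3%, and 8.13% and 29.6%. All treated libraries lay above both Sham libraries. Mmp8 rose in macrophages by 6.75 ± 0.81 (adjusted p = 0.00165), which was lost without Sham 2 (adjusted p = 0.121), the only Sham library with an Mmp8 UMI in this class.

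Within the macrophages Mmp8 lay mainly in the cells with monocyte markers. These held 396 and 308 CPM in IMQ, and the C1q macrophages 47.2 and 28.7. The monocyte-marker cells numbered 5, 50, 325, 308, 11 and 226, and the C1q cells 36, 246, 58, 52, 25 and 26, so the makeup of the class changed together with Mmp8. How much of the rise in the class came with that makeup was not tested. The 9 neutrophil markers summed to 74.3 and 96.6 CPM in Sham macrophages and 2154 and 4584 in IMQ macrophages, with 1 of the 9 at 0 in each IMQ library.

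Because neutrophils are rich in Mmp8 and Mmp9, the UMIs that free neutrophil RNA could give each class were worked out from the neutrophil genes Retnlg, Csf3r, Cxcr2 and Ly6g, taking the ratio of the protease to these genes in the neutrophils of the same library. These 4 genes are among the neutrophil markers that the macrophage gate limits, so the values for macrophages are low estimates. The fibroblast and keratinocyte gates set no limit on neutrophil markers. Mmp8 and Mmp9 are in no gate. Such RNA would give IMQ macrophages 11.5 and 9.80 UMIs of Mmp8, and 1059 and 697 were observed, which is 91.8 and 71.1 times as many. S100a8 and S100a9, which the macrophage gate also limits and which other inflamed cells also make, were used in place of these genes. With them the observed count was still 34.9 and 14.0 times as high. For Mmp9 the order was the other way: 10.1 and 11.6 UMIs would come with neutrophil RNA and 1 and 4 were observed. The ratio of the 2 proteases also differed, with 841 Mmp8 to 739 Mmp9 UMIs in the neutrophils of IMQ 1 and 1632 to 1937 in those of IMQ 2, against 1059 to 1 and 697 to 4 in the macrophages. In keratinocytes the 7 and 5 Mmp8 UMIs of IMQ were 0.465 and 0.585 times what neutrophil RNA would give, so they were not above this background.

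**Figure D4:**
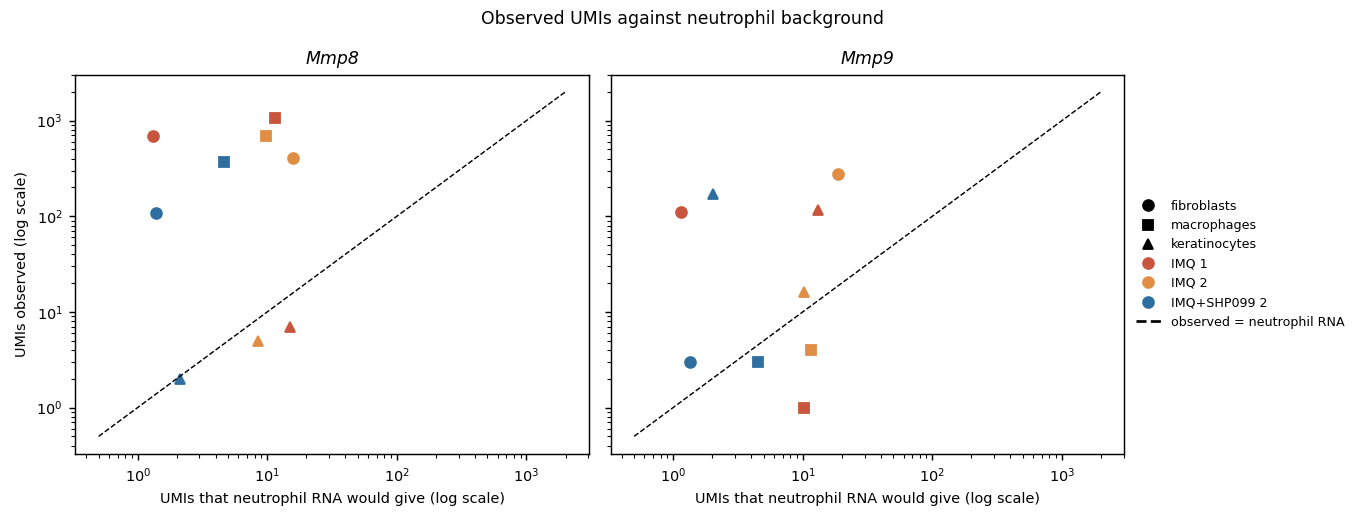
UMIs observed in fibroblasts, macrophages and keratinocytes against the UMIs that neutrophil RNA would give them, on log axes, for Mmp8 and Mmp9 in the 3 libraries with neutrophils, with the dashed line at equality. Mmp8 of macrophages and fibroblasts lies well above the line and that of keratinocytes below it, while Mmp9 of macrophages lies below the line.

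Fibroblasts also held Mmp8. Their level was 0.331 and 0.228 CPM in Sham, 21.6 and 6.94 under IMQ, and 22.5 and 4.08 under IMQ+SHP099, from 2, 7, 693, 409, 293 and 109 UMIs. The treated libraries all lay above Sham, and the share of cells with a UMI was 0.204% and 0.227% in Sham and 5.48% and 2.90% in IMQ, or 0.112% and 0.0474% against 2.35% and 0.964% after thinning. The counts of IMQ were 530 and 25.9 times what neutrophil RNA would give by the same 4 genes, and 20.02 and 11.9 times what macrophage RNA would give by C1qa, C1qb and C1qc. The monocyte-marker macrophages, where macrophage Mmp8 mainly lay, were gated as having no C1q gene on. RNA from these cells is therefore poorly traced, and the macrophage ratios cannot show that fibroblast Mmp8 exceeded it. By gate, Cyp2f2/Lum fibroblasts held 1.56 and 0.277 CPM in Sham and 62.5 and 21.0 in IMQ, Coch/Dkk2/Crabp1 fibroblasts 0 and 0.417 against 42.2 and 14.5, and Plac8/Cxcl13 fibroblasts 0 and 0 against 2.05 and 1.18. In Plac8/Cxcl13 fibroblasts the counts were only 1.80 and 1.98 times the macrophage background. Mmp8 rose in the Cyp2f2/Lum gate by 6.58 ± 0.92 (adjusted p = 0.00105; without Sham 2, 4.47, adjusted p = 0.0691), and in that gate 130 and 57 Mmp8 UMIs stood beside 0 Mmp9 UMIs in both IMQ libraries. In the sum of all fibroblasts the fold change of 5.98 ± 1.22 did not pass (adjusted p = 0.0961; without IMQ 2, 0.0363).

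Mmp9 was found in most neutrophils, at 949 and 1278 CPM in IMQ and 833 in IMQ+SHP099 2, with 82.3%, 91.6% and 83.9% of the cells holding a UMI. In Sham skin 43.4% of its 650 UMIs lay outside the gates, and the gated class with most was the Langerhans cells (23.2%), the dendritic cells of the epidermis. They held 118 and 244 CPM in Sham, 8.44 and 18.8 under IMQ, and 7.24 and 4.10 under IMQ+SHP099. All 4 treated libraries lay below both Sham libraries. The share of Langerhans cells with a UMI was 45.5% and 63.0% in Sham, 13.6% and 14.6% under IMQ, and 7.84% and 4.76% under IMQ+SHP099, or 22.0% and 35.7%, 1.68% and 3.53%, and 1.64% and 0.837% after thinning. In this comparison, chosen after the data were seen, 2 of 4 genes tested were called (1.22% of all genes): Mmp9 fell by 3.68 ± 0.43 (adjusted p = 0.00266), and Timp1 rose by 4.05 ± 0.68 (adjusted p = 0.0185) from 6.57 and 0 CPM to 88.6 and 51.0. Langerhans cells numbered 101, 27, 59, 48, 102 and 21, and without IMQ 1 neither call held (Mmp9 -3.16, adjusted p = 0.0714; Timp1 3.54, adjusted p = 0.135). Between Langerhans cells and fibroblasts, 0 of 9 IMQ changes differed by edgeR (0.257% of all genes), with 1 at an unadjusted p under 0.05, that of Mmp9.

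In fibroblasts and keratinocytes Mmp9 lay in few cells. The 111 and 275 fibroblast UMIs of IMQ lay in 6 and 22 cells, with 94 and 89 in the highest cell of each library. Keratinocytes held 72, 4, 116, 16, 125 and 172 UMIs in 50, 4, 18, 8, 11 and 3 cells, with 4, 1, 29, 5, 45 and 170 in the highest cell of each library.

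Mmp12, the macrophage elastase, had its highest level in the macrophages of Sham 2. Macrophages held 27.8 and 232 CPM in Sham, 6.41 and 6.10 under IMQ, and 8.98 and 11.6 under IMQ+SHP099, from 6, 686, 21, 17, 2 and 19 UMIs in 2, 85, 3, 6, 2 and 3 cells. Sham lay above the treated groups, but the 2 Sham libraries were far apart. The share of macrophages with a UMI was 4.44% and 19.4% in Sham and 0.721% and 1.53% in IMQ, or 2.78% and 13.1% against 0.459% and 0.595% after thinning. Mmp12 fell by 4.38 ± 0.63 with IMQ (adjusted p = 0.00366), and without Sham 2 by 2.13 (adjusted p = 0.28). Of the 686 UMIs of Sham 2, 91 lay in C1q and 28 in monocyte-marker macrophages, so most lay in macrophages of neither set. The makeup of the class changed, as given above, and how much of the Mmp12 fall came with it was not tested. Cells outside the gates also held more Mmp12 in Sham, at 9.81 and 61.1 CPM against 0.569 and 2.70 in IMQ. In the Langerhans cells of Sham 2, 56 of 63 Mmp12 UMIs lay in 1 cell. Of the 535 Mmp12 UMIs of IMQ+SHP099, 410 lay in the keratinocytes of IMQ+SHP099 1.

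Mmp13 in macrophages was at 4.64 and 15.6 CPM in Sham and 2.44 and 2.51 in IMQ, which is 1, 46, 8 and 7 UMIs. It fell by 2.23 ± 0.54 (adjusted p = 0.0424), but DESeq2 did not call it (adjusted p = 0.714), and it was lost without IMQ 1 (0.663) or IMQ 2 (0.643). In all, 3 of 6 genes tested in macrophages were called (Mmp8 higher, Mmp12 and Mmp13 lower), where 4.46% of all genes were. The median log2 fold change of the 6 was -0.43, against -0.005 for all genes. Mmp8, with 0 and 10 UMIs in Sham macrophages, passed the filter only through the treated libraries, so this median is a description. Without Sham 2, 0 were called. Mmp14 in macrophages, at 37.1, 13.9, 36.3 and 41.2 CPM in Sham and IMQ, overlapped between the groups (1.32 ± 0.58, adjusted p = 0.265), and Timp1 was at 9.19 to 22.5 in all libraries. The IMQ change of Timp1 was 3.16 ± 0.62 (log2) smaller in macrophages than in fibroblasts (adjusted p = 0.0184), 1 of 9 such differences called (1.3% of all genes).

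In keratinocytes, the IMQ libraries differed from Sham in 4 of 9 genes tested, where 13.4% of all genes did, with Mmp13 and Timp1 higher and Mmp14 and Timp3 lower. Their median log2 fold change was 1.10, against -0.08 for all genes. Keratinocyte depth differed too, with a median of 9761 and 15190 UMIs per cell in Sham and 35326 and 31457 in IMQ.

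Mmp13 (collagenase 3) was at 0.658 and 0.0688 CPM in Sham keratinocytes, 15.1 and 3.75 under IMQ, and 17.9 and 13.2 under IMQ+SHP099. No treated library overlapped with Sham. It lay in few cells, with 0.359% and 0.119% of Sham, 3.73% and 0.927% of IMQ and 7.17% and 4.69% of IMQ+SHP099 keratinocytes holding a UMI, or 0.117% and 0.016%, 1.16% and 0.297%, and 1.90% and 1.40% after thinning. Of the 630 UMIs of IMQ 1, 225 lay in 1 of 44 positive cells, and of the 88 of IMQ 2, 64 in 1 of 7. In IMQ+SHP099 1, 2525 UMIs were spread over 374 cells. Mmp13 rose by 4.70 ± 0.96 with IMQ (adjusted p = 0.0166; with only the Sham and IMQ libraries in the fit, 0.056). This change was 7.65 ± 1.42 (log2) above that of macrophages (adjusted p = 0.00554), and 3 of 9 genes differed so, with Mmp14 and Timp1 (3.96% of all genes).

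Mmp10 (stromelysin 2) was rarer, at 0.735 and 0.138 CPM in Sham keratinocytes, 1.63 and 0.682 under IMQ, and 1.93 and 4.42 under IMQ+SHP099. Sham and IMQ overlapped, and the difference of 1.51 ± 0.84 did not pass (adjusted p = 0.263). In fibroblasts it was at 0 UMIs in both Sham libraries and at 48 and 3 in IMQ, with the 48 in 8 cells.

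Timp1 in keratinocytes rose from 0.297 and 0.792 CPM in Sham to 3.72 and 4.31 in IMQ (3.30 ± 0.54, adjusted p = 0.00731), with 4.66 and 2.63 in IMQ+SHP099. The treated libraries lay above Sham, at levels far below those of fibroblasts. Fibroblast RNA, traced by Mmp2, would give keratinocytes more Timp1 than was observed: the count was 0.180 and 0.483 times that background in Sham and 0.317 and 0.334 times in IMQ. Traced by Col1a1, Col1a2 and Dcn, genes the gate itself limits, the count was 4.03 and 3.17 times the background in Sham and 3.02 and 2.99 times in IMQ. Keratinocyte Timp1 and fibroblast RNA therefore cannot be told apart. The same holds for keratinocyte Mmp3 in IMQ, at 0.363 and 0.393 times the background by the Mmp2 tracer (1.86 and 1.56 times in Sham).

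Timp3 in keratinocytes was at 57.2 and 164 CPM in Sham, 8.47 and 12.3 under IMQ, and 6.46 and 10.1 under IMQ+SHP099. Sham lay apart from both treated groups, and Timp3 fell by 3.02 ± 0.39 with IMQ (adjusted p = 0.00259). Its counts were above the fibroblast background by the Mmp2 tracer in every library, at 3.36 and 9.02 times in Sham and 3.13 and 1.88 times in IMQ, and those of Mmp14 were 6.74 and 3.43 times it in Sham and 1.24 and 1.45 times in IMQ. The IMQ changes of Mmp3 and Mmp14 were smaller or lower in keratinocytes than in fibroblasts, by 1.93 ± 0.47 and 1.58 ± 0.47 (adjusted p = 0.0156 and 0.0425), 2 of 9 called where 9.89% of all genes were. Keratinocyte Mmp3 in IMQ was below this background, as given above.

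**Figure D5:**
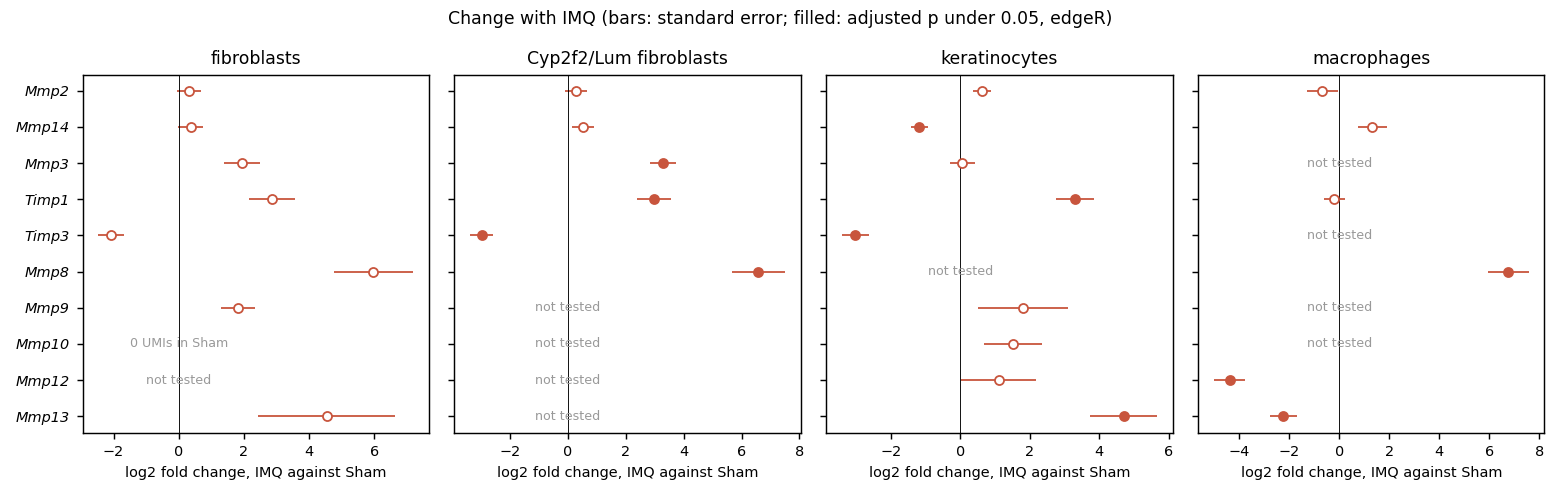
Log2 fold change of each gene between IMQ and Sham in all fibroblasts, Cyp2f2/Lum fibroblasts, keratinocytes and macrophages, with bars of 1 standard error and filled points where the edgeR adjusted p was under 0.05. Genes below the count filter are marked as not tested, and Mmp10 of all fibroblasts, with 0 UMIs in Sham, is marked and not drawn. Timp3 lies left of 0 in the first 3 panels, and of the points drawn Mmp8 lies furthest right in macrophages and both fibroblast panels.

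In endothelial cells the 2 inhibitors parted. Endothelial Timp1 was at 10.9 and 10.7 CPM in Sham, 96.1 and 87.4 under IMQ, and 61.0 and 52.2 under IMQ+SHP099, with no overlap, and rose by 3.22 ± 0.32 (adjusted p = 0.0158), 1 of 4 genes called (0.3% of all genes). The IMQ counts were 5.21 and 3.08 times the fibroblast background by the Mmp2 tracer. Endothelial Timp3 was at 1920.5 and 1790.2 in Sham, 1882 and 1517 under IMQ, and 2198 and 2281 under IMQ+SHP099. Sham and IMQ overlapped, with a difference of -0.06 ± 0.30 (adjusted p = 0.944). Mural Timp3 was at 763 and 1081 in Sham and 460 and 438 in IMQ (-0.85 ± 0.24, adjusted p = 0.103). In mural cells 0 of 5 genes were called by edgeR (1.36% of all genes) and 0 by DESeq2, with 2 at an unadjusted p under 0.05.

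The third group asks whether SHP099 changed these genes under imiquimod. Between IMQ+SHP099 and IMQ, 0 of 9 genes were called in fibroblasts (0% of all genes), 0 of 9 in keratinocytes (0%), 0 of 6 in macrophages (0%) and 0 of 2 in neutrophils (0.0605%) by edgeR. At an unadjusted p under 0.05 there were 1, 0, 0 and 0, and DESeq2 called 1, 0, 0 and 0. The 1 was Mmp9 in fibroblasts, with 111 and 275 UMIs in IMQ against 1 and 3 in IMQ+SHP099. The 2 IMQ+SHP099 libraries lay far apart in several genes, with Timp1 of fibroblasts at 2366 and 580, Mmp3 at 1677 and 683 and Mmp8 of macrophages at 58.4 and 227 CPM. The fold changes in fibroblasts were 0.94 ± 0.67 for Timp1, 0.20 ± 0.54 for Mmp3, 0.11 ± 0.38 for Timp3 and -0.01 ± 0.81 for Mmp8. In macrophages Mmp8 differed by -0.84 ± 0.53. In neutrophils, with a single IMQ+SHP099 library whose spread is assumed to be that of IMQ, Mmp8 differed by -0.29 ± 0.21 and Mmp9 by -0.39 ± 0.27. Differences of these sizes were not detectable with 2 libraries per group, which does not show that the groups were alike.

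IMQ+SHP099 was also set against Sham, which shares the Sham libraries with the IMQ comparison. It called 3 of 9 genes in keratinocytes (14.4% of all genes; Mmp13 5.53, adjusted p = 0.0107; Timp1 3.37, adjusted p = 0.00765; Timp3 -3.27, adjusted p = 0.00213). It called 2 of 6 in macrophages (2.16%; Mmp8 5.91, adjusted p = 0.00489; Mmp12 -3.49, adjusted p = 0.0307), and 0 of 9 in fibroblasts by edgeR (0.167%), with 5 at an unadjusted p under 0.05. Over all cells of a library, 0 of 10 genes were called by edgeR in either contrast (0% of all genes), with 5 between IMQ and Sham and 0 between IMQ+SHP099 and IMQ at an unadjusted p under 0.05.

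Other genes of matrix proteolysis were counted as a list of 42, of which 41 were in the files. With IMQ, where 0.354% of all genes tested were called in fibroblasts, 13.4% in keratinocytes and 4.46% in macrophages, the other matrix metalloproteinases and inhibitors gave 1 of 12 higher in fibroblasts (Mmp11, stromelysin 3, 2.42 ± 0.31, adjusted p = 0.0334), 0 of 11 in keratinocytes (2 at an unadjusted p under 0.05) and 1 of 3 lower in macrophages (Timp2, -2.36, adjusted p = 0.0381). The plasminogen system, which activates proenzymes of this family through plasmin, included Plau, the urokinase activator, which rose by 2.37 in keratinocytes (adjusted p = 0.00671). Of 11 aggrecanase-type and sheddase proteases tested in keratinocytes, Adamts5 rose by 4.22 (adjusted p = 0.000778). Of 4 cathepsins, 0 were called in fibroblasts, keratinocytes or macrophages by edgeR, with 1, 3 and 1 at an unadjusted p under 0.05. The plasminogen list gave 0 of 6 in fibroblasts and 0 of 5 in macrophages (3 and 1), and the aggrecanase-type and sheddase list 0 of 12 and 0 of 6 (5 and 0).

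Across 45 sums of class and library, the genes whose levels ran most like a member's were named among 6370 genes, as a description, since the sums share libraries and depth. Mmp8 ran with Hp (Pearson r = 0.953), Fpr1 and Cd177, and Mmp9 with Stfa2l1 (0.819), Ltf and Osgin1. Mmp3 ran with Cpxm1 (0.920), Spon2 and Dcn, and Mmp2 with Ugdh (0.912), Ptx3 and Spon2. Mmp12 ran with Mgl2 (0.881), Tnip3 and C1qc, and Mmp14 with Anpep (0.876), P4hb and Kdelr2. Timp1 ran with Efemp2 (0.826), Cpq and Mmp14, and Timp3 with Cnn3 (0.969), Arhgap29 and Dpysl3. Mmp10 and Mmp13 were below 20 CPM in every sum and were left out.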

How the data were processed

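Skin was digested with collagenases, dispase and trypsin, and the authors counted UMIs with Cell Ranger 3.1.0 against GRCm38. The deposited files hold these raw counts per gene and cell, with no normalization. Cells under 100000 UMIs, 6500 genes and 10% mitochondrial UMIs were kept, as in the study. A marker was on at 2 UMIs or more and at 2 or more per 10000, and a gate needed a minimum of its own markers (4 of 7 for fibroblasts, 5 of 13 for keratinocytes, 4 of 9 for neutrophils) and allowed few of other classes, so 41113 cells lay in 1 class each. UMIs were summed per library and class (10 cells or more; 20 for fibroblast gates) and tested with the edgeR 4.0.16 quasi-likelihood test (TMM, filterByExpr, all 3 groups in a fit), adjusted over all genes by Benjamini-Hochberg, with a threshold of 0.05. The fits across classes and gates used the library as a block. DESeq2 1.42.0 in R 4.3.3, other size factors, no count filter, other gates, a 5% mitochondrial limit and left-out libraries were alternatives. Detection was also given with cells thinned to 2000 UMIs, leaving out shallower cells. With 2 libraries against 2, an exact permutation test of a single value cannot go below p = 0.333, so none is given. Counting floors (3 UMIs) cover counting error only. The script was tested on simulated counts. The members, lists and gates were chosen with earlier results of these data known. The named genes are all 10 members, and others of the proteolysis list only where called without overlap between groups. One result of that list is not reported here.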

Additional observations from a re-analysis of the deposited data

Results flagged for a closer look

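In 10 cases the IMQ change of a gene differed between cell classes or gates by a test of the difference itself (interaction of class and group with the library as a block, edgeR, adjusted over all genes), on the log2 scale. Among fibroblasts, the change in the Plac8/Cxcl13 gate minus that in the Coch/Dkk2/Crabp1 gate was -2.44 for Mmp3 and -1.67 for Mmp14, and minus that in the Cyp2f2/Lum gate it was -2.68 for Mmp3 and -0.95 for Mmp14. Keratinocytes minus fibroblasts gave -1.93 for Mmp3 and -1.58 for Mmp14. Macrophages minus fibroblasts gave -3.16 for Timp1. Keratinocytes minus macrophages gave 7.65 for Mmp13, -2.60 for Mmp14 and 3.57 for Timp1. Keratinocyte Timp1, and in IMQ keratinocyte Mmp3, were below the fibroblast background by the Mmp2 tracer, and keratinocyte Mmp14 in IMQ was little above it. The macrophage Mmp13 change rests on 1 and 46 Sham UMIs. The comparisons were added after the data were seen.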

How the results depend on the processing

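The limits are the 2 libraries per group, the few macrophages of Sham 1 and IMQ+SHP099 1 and the marker gates. Of the genes tested between IMQ and Sham in all fibroblasts, where 0 were called, DESeq2 called 4 and a fit with no count filter 7. With no filter, 6 were called in macrophages, 8 in the Coch/Dkk2/Crabp1 gate, 3 in the Plac8/Cxcl13 gate, 2 in endothelial and 3 in mural cells, and between IMQ+SHP099 and IMQ 1 in fibroblasts and 1 in keratinocytes. DESeq2 called 4 in the Coch/Dkk2/Crabp1 gate, 2 in the Plac8/Cxcl13 gate and 1 between IMQ+SHP099 and IMQ in fibroblasts. A stricter gate left 1 in the Coch/Dkk2/Crabp1 gate. Leaving out 1 library in turn gave 0 to 1 calls in fibroblasts, 3 to 4 in keratinocytes, 0 to 5 in macrophages, 1 to 5 in the Coch/Dkk2/Crabp1 gate, 0 in the Plac8/Cxcl13 gate, 3 to 4 in the Cyp2f2/Lum gate, 0 to 3 in Langerhans cells, 1 to 2 in endothelial and 0 to 2 in mural cells, 10 to 12 between fibroblast gates (12 in all) and 33 to 39 between classes (38 in all). Mmp9 in keratinocytes between IMQ+SHP099 and IMQ, at 2.30, reversed to -0.91 with a stricter gate and spanned -0.72 (without IMQ+SHP099 replicate 2) to 3.77 with a library left out. In all, 863 values kept their direction and side of the threshold, 56 became stronger, 35 weaker and 2 reversed. The cause of these changes was not tested, save that fewer libraries or another gene set was in the fit.

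With the replicate number as a block, 3 genes were called in fibroblasts (Mmp3, Mmp8 and Timp1), 5 in the Coch/Dkk2/Crabp1 gate, 2 in the Plac8/Cxcl13 gate and 1 in mural cells, and macrophage Mmp13 was not called. Nothing in the labels says that a number marks shared animals or a shared day, and deviations of same-numbered libraries correlated at r = -0.008 to 0.233. For neutrophils no fit with the block or a left-out library was run, as IMQ+SHP099 had 1 library.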
